A study of Mus musculus with 20 samples.

Results

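The effect of rosuvastatin in the presence of geranylgeraniol (GGOH) was described in liver RNA of diet-induced obese (DIO) mice. The comparison holds 10 of the 20 libraries of the series. In 5 libraries the mice had received rosuvastatin and GGOH together (rosuvastatin+GGOH mice 1 to 5), and in the other 5 they had received GGOH alone (GGOH mice 1 to 5). All of them are labelled wild type (WT) and carry DIO in their titles, so GGOH and obesity are shared by both groups. The libraries were chosen by their titles, and the members are all named genes with adequate counts, 12789 of 34933 named entries. Libraries of mice given rosuvastatin or vehicle without GGOH, also 5 each, entered the same model and are used for values set side by side. The labels give no dose, duration, diet, age, sex, strain or batch. They number the mice 1 to 5 in each group, and nothing beyond this numbering shows separate animals, so p-values measure the spread between these samples.

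Rosuvastatin belongs to the statins, drugs that block an early step of the mevalonate pathway. The pathway branches at farnesyl diphosphate: one arm leads through squalene to cholesterol, and another leads to geranylgeranyl diphosphate, the lipid that anchors many small GTPases to membranes. In liver, a drop in sterols releases the transcription factor SREBP2, which raises the genes of cholesterol synthesis and LDL uptake. GGOH is an isoprenoid alcohol that cells convert to geranylgeranyl diphosphate, below the step that statins block, and it supplies the prenylation arm without supplying sterol.

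Total estimated counts ran from 8548120 to 17864456 in the rosuvastatin+GGOH libraries and from 11350411 to 18373913 in the GGOH libraries. The tissue label was checked against hepatocyte markers: 13 of 14 listed names were in the table and tested. Their summed level was 63951 to 115743 CPM in rosuvastatin+GGOH mice and 86502 to 106022 CPM in GGOH mice. CPM are counts scaled to library size after TMM normalisation, which corrects library sizes for a skewed composition. Rosuvastatin+GGOH mice 2 and 3 stood apart from the other 8. On the first principal component, which held 45.6% of the variance of the 10 libraries, they lay at -52.7 and -68.8. The rest were spread between -16.4 and 58.6, with GGOH mice 1 and 4 furthest at the other end (58.6 and 40.8). Those 2 GGOH mice were not left out together in any fit. Both had the lowest hepatocyte marker sums, 67042 and 63951 CPM, with 9 of 13 markers below the lowest GGOH mouse in each. Of all tested genes, 28.6 and 30.0% lay below the lowest GGOH mouse in mice 2 and 3. In bulk tissue, fewer cells of a type and less RNA per cell cannot be told apart.

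Mitochondrially encoded transcripts took 17.1, 27.9, 29.2, 13.4 and 9.12% of the counts in rosuvastatin+GGOH mice 1 to 5, against 8.06, 16.7, 13.6, 11.1 and 15.1% in GGOH mice 1 to 5. Mice 2 and 3 were above every GGOH mouse, mouse 5 was below all but one of them, and the groups overlapped (two-sided exact permutation p = 0.214). The correlation across genes between expression deviation and transcript GC content was 0.105, 0.159, 0.204, 0.0452 and 0.132 in rosuvastatin+GGOH mice and -0.282, -0.110, -0.319, -0.247 and 0.0942 in GGOH mice. All 5 values were positive with the statin, and 1 of 5 without it. The means differed by 0.301 (two-sided exact permutation p = 0.0159; the smallest this design allows is 0.00794). Mice were permuted, not genes. The part of these library differences in the gene results was not tested.

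**Figure D1:**
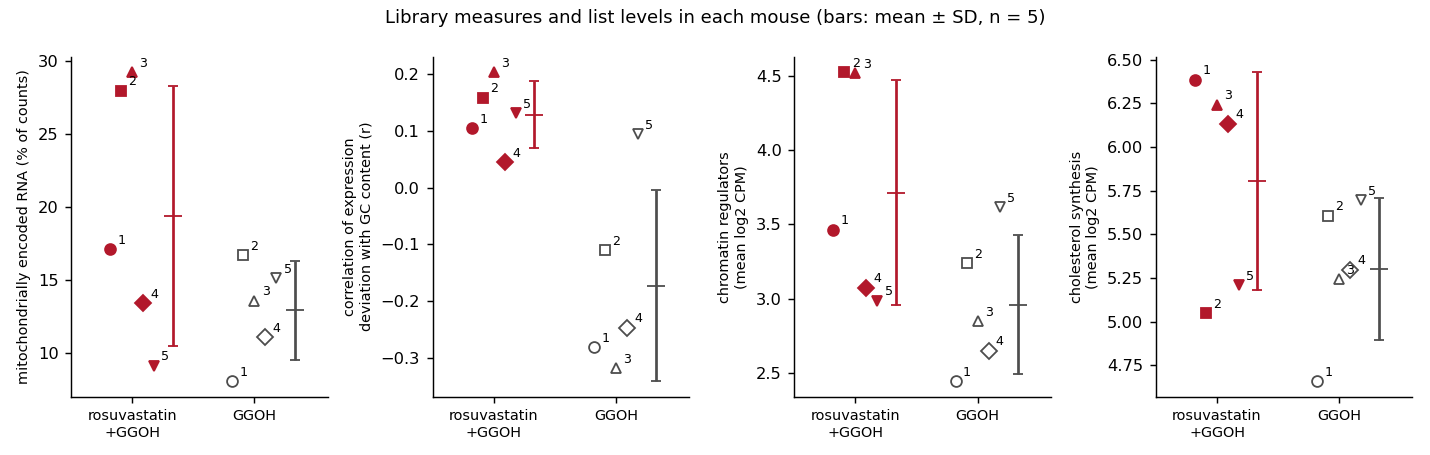
Mitochondrial share of counts (percent), correlation of expression deviation with GC content (r), and the mean log2 CPM of the chromatin regulator and cholesterol synthesis lists, by mouse, with rosuvastatin+GGOH filled and GGOH open. Numbers are mouse numbers, bars are mean ± SD (n = 5). Mice 2 and 3 are highest for mitochondrial share and chromatin regulators, whereas mice 1, 3 and 4 are highest for cholesterol synthesis.

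No gene passed an adjusted p of 0.05 in rosuvastatin+GGOH mice against GGOH mice: edgeR's quasi-likelihood test called 0 of 12789 (smallest adjusted p = 0.348), and DESeq2 and limma also called 0. At an unadjusted edgeR p under 0.05, 1144 genes were higher (8.95% of those tested) and 644 were lower (5.04%). In the text that follows, a gene described as called "at unadjusted p" met this looser criterion only, and the called genes named have edgeR adjusted p-values of 0.348 to 0.356. Of the 85 preselected genes and list members so called, 18 kept the call without each single library and 14 without rosuvastatin+GGOH mice 2 and 3. Higher genes made up 64.0% of these calls, but 49.5% without rosuvastatin+GGOH mice 2 and 3, 51.2% with sample quality weights, and 50.6 and 51.3% by limma on TPM. Without those 2 mice the counts were 139 higher (1.09%) and 142 lower (1.11%). At such shares a short list may well hold 0 calls, so a list with 0 called is near all genes. The 2 mice were left out because they stood apart in these same libraries. Smaller differences without them, in lists furthest in them, are therefore largely set by that choice. Of the 1144 higher genes, 91 were among those called without the 2 mice, and of the 644 lower genes 95 were. The remaining 8 libraries are shared by both fits, so these calls are not independent. Groups did not overlap at all in 119 higher genes (0.930%) and 170 lower genes (1.33%).

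Cholesterol synthesis genes were higher in 3 of the 5 rosuvastatin+GGOH mice and within or below the GGOH range in the other 2, except for 1 gene in mouse 2. All 20 genes of the list were tested, 19 had a positive log2 fold change, and the median was 0.58, against 0.01 over all 12789 genes, of which 50.9% were positive. Lss was called at unadjusted p, and in none of the 20 did the groups separate. In mouse 1, 18 of the 20 genes exceeded the highest GGOH mouse, in mouse 3 also 18, and in mouse 4 it was 16, against 14.7, 34.8 and 13.4% of all genes in those mice. In mice 2 and 5 the count was 1 and 0, and 17 and 13 of the genes lay below the GGOH median. The mean log2 CPM of the list was 6.38, 5.05, 6.24, 6.13 and 5.21 in rosuvastatin+GGOH mice 1 to 5 and 4.66, 5.61, 5.24, 5.30 and 5.70 in GGOH mice 1 to 5. Without rosuvastatin+GGOH mice 2 and 3 the list median was 0.70, with all 20 positive, and with offsets for GC content and transcript length it was 0.56. Leaving out 1 library at a time gave medians of 0.41 (without rosuvastatin+GGOH mouse 1) to 0.74 (without mouse 2).

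**Figure D2:**
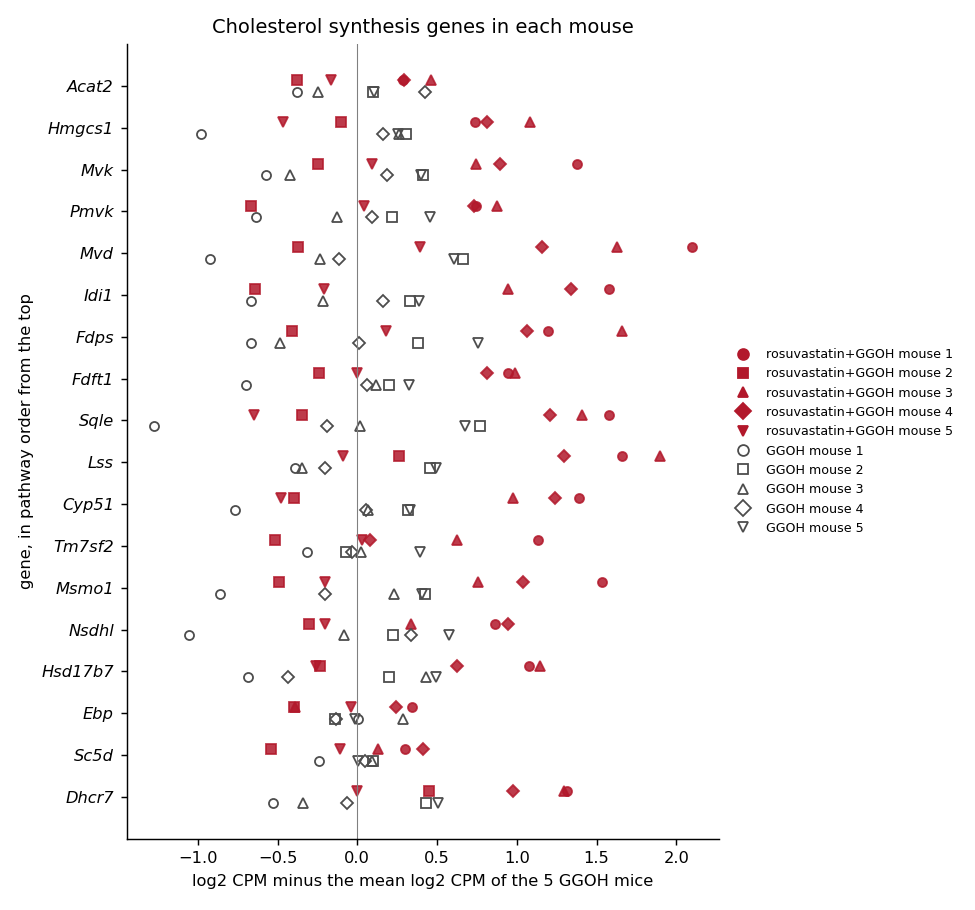
Log2 CPM of 18 cholesterol synthesis genes in each mouse, minus the mean of the 5 GGOH mice; rosuvastatin+GGOH mice are filled and GGOH mice open, and each mouse has its own symbol. The symbols of rosuvastatin+GGOH mice 1, 3 and 4 lie to the right for most genes, while those of mice 2 and 5 lie among the GGOH mice.

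In the mevalonate arm, Mvd, which makes isopentenyl diphosphate, had 24.6, 4.43, 17.7, 12.8 and 7.54 CPM in rosuvastatin+GGOH mice, against 3.03, 9.07, 4.87, 5.30 and 8.74 CPM in GGOH mice. Mice 1, 3 and 4 exceeded every GGOH mouse, mouse 5 was inside the GGOH range and mouse 2 was below 4 of the GGOH mice. The log2 fold change was 1.09 ± 0.55 (SE, n = 5 each; edgeR adjusted p = 0.366). The others described in this arm ranged in log2 fold change between 0.10 for Acat2, which condenses acetyl-CoA, and 0.81 for Fdps, which makes farnesyl diphosphate.

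In the arm from squalene to cholesterol, Lss, the lanosterol synthase (chromosome 10, 76531588 to 76557138, plus strand, GRCm38), had 26.7, 10.1, 31.5, 20.7 and 7.95 CPM in rosuvastatin+GGOH mice and 6.44, 11.6, 6.64, 7.33 and 11.9 CPM in GGOH mice. Its highest 3 values were again those of mice 1, 3 and 4, and mice 2 and 5 overlapped the GGOH mice. The log2 fold change was 1.13 ± 0.45, and the gene was no longer called at unadjusted p without rosuvastatin+GGOH mouse 3 or mouse 1. It was still called with mice 2 and 3 both left out. Dhcr7, the last step to cholesterol in one of the routes, had a log2 fold change of 0.82 ± 0.40 (edgeR adjusted p = 0.359). The isomerase Ebp, at 96.6 TPM in rosuvastatin+GGOH mice and 97.7 TPM in GGOH mice, had a log2 fold change of -0.02 ± 0.20, and the desaturase Sc5d, at 159 TPM and 142 TPM in the same order of groups, had 0.07 ± 0.23. These were also the most abundant per length with Msmo1, the sterol C4 methyl oxidase, at 110 TPM in rosuvastatin+GGOH mice and 70.6 TPM in GGOH mice. Exons of Fdft1, Cyp51 and Tm7sf2 overlap those of Ctsb, Akap9 and Vps51, and whether the counting used strand is not given in the sources used here.

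Promoter sequence was examined because members of this list moved together across mice. RefSeq (GRCm38.p6) gave the 250 bases before the start of 15 of the 20 genes. The letters CCAAT, the core bound by the factor NF-Y in many sterol gene promoters, were found on either strand in 14 of the 15 (93.3%; Acat2 had none), in 5 of 10 genes with an entry among those of sterol uptake and control, and in 40.5% of the 9946 tested genes with an entry. The longer core of the sterol regulatory element, with 1 free base, searched on both strands, was in 0 of 15, in 0 of 10, and in 0.191% of the 9946. CCAAT was chosen after the searched form had been seen to be absent from these windows. The windows of Lss, of Mvd and of Dhcr7 are printed because these had the smallest p-values among members with an entry. Capitals mark CCAAT or its reverse complement ATTGG, and the nearest one begins 62, 27 and 49 bases before the start of Lss, of Mvd and of Dhcr7.
Lss, chr10:76531355-76531604, plus strand: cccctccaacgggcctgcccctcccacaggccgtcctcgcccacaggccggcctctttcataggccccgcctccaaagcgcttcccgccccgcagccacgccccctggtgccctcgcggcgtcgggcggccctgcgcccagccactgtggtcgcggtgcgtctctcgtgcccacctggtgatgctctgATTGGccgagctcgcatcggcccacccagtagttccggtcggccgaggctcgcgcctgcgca
Mvd, chr8:122443423-122443672, minus strand: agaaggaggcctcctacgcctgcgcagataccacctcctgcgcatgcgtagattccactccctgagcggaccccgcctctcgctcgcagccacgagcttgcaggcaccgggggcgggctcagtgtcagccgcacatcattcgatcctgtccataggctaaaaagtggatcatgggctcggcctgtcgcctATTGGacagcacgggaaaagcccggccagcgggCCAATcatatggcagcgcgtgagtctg
Dhcr7, chr7:143829964-143830213, plus strand: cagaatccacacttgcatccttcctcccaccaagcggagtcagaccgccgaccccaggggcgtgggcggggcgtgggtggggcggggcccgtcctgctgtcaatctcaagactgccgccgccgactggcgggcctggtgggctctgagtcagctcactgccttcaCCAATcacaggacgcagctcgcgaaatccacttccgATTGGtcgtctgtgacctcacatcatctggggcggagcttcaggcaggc

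Genes that take up sterol or control its synthesis also leaned higher. In mice 1 to 5, 8, 11, 15, 4 and 1 of the 19 tested exceeded every GGOH mouse, the most in mouse 3. Of all genes, 14.7, 31.2, 34.8, 13.4 and 13.7% did so in mice 1 to 5. Of 20 listed, 19 were tested, 16 were positive with a median log2 fold change of 0.38, 4 were called higher at unadjusted p (Scap and Lrp1 among them) and 1 lower (Insig2). Without rosuvastatin+GGOH mice 2 and 3 the median was 0.25, 14 were positive and 0 were called. Of all genes, 1.09% were then called higher. Scap, the escort that carries SREBP to the Golgi, was at 0.63 ± 0.28, and at 0.48 without those mice.

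Insig2, which holds the SREBP escort Scap in the endoplasmic reticulum, was the member whose groups did not overlap. It had 207, 202, 207, 236 and 201 CPM in rosuvastatin+GGOH mice, against 344, 245, 332, 390 and 287 CPM in GGOH mice. Every rosuvastatin+GGOH mouse was below every GGOH mouse, and their 5 values lay close together. The log2 fold change was -0.60 ± 0.24 and -0.56 without mice 2 and 3. It was called neither without those mice nor without GGOH mouse 4, where it was at -0.52. Its relative Insig1 was at 0.46 ± 0.32. Srebf2, the gene of SREBP2, was at 0.51 ± 0.25 (edgeR adjusted p = 0.359). Lrp1, a large endocytic receptor, had 103, 260, 237, 85.7 and 113 CPM in rosuvastatin+GGOH mice and 86.6, 104, 75.0, 65.4 and 127 CPM in GGOH mice. Its log2 fold change of 0.80 ± 0.36 was 0.14 without mice 2 and 3, the highest of the 10, and it was not called without either of them or GGOH mouse 1, 3 or 4.

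The 14 genes of the isoprenoid branch and protein prenylation had a median log2 fold change of -0.16, with 6 positive. Ggps1, which makes geranylgeranyl diphosphate, had 16.9, 15.5, 11.3, 13.8 and 13.6 CPM in rosuvastatin+GGOH mice and 16.0, 18.5, 17.4, 16.4 and 17.0 CPM in GGOH mice. Mouse 1 was inside the GGOH range and the other 4 were below it. The log2 fold change was -0.26 ± 0.20 (edgeR adjusted p = 0.509), and exons of Ggps1 overlap those of Arid4b on the other strand. Chm, a Rab escort protein needed for geranylgeranylation of Rab GTPases, was the member called lower, at -0.46 ± 0.16, and at -0.30 without mice 2 and 3. In the coenzyme Q and dolichol list, fed by the same isoprenoids, 10 of 19 were positive (median 0.04). Coq3, a methyltransferase of coenzyme Q synthesis, was lower, at 24.4 ± 3.96 CPM in rosuvastatin+GGOH mice and 35.6 ± 7.73 CPM in GGOH mice (SD, n = 5 each), but was not called without rosuvastatin+GGOH mouse 2, 3 or 4 or GGOH mouse 1 or 4.

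Many small GTPases need a geranylgeranyl anchor, and some act upstream of the coactivator YAP. Their list, with YAP targets, had a median of 0.15 over 21 tested genes, with 13 positive. The 4 genes called higher were the YAP partners Tead1 (0.72 ± 0.34) and Tead3 (0.81 ± 0.37), the cytoskeletal kinase gene Rock2 (0.43 ± 0.20) and Amotl2 (0.56 ± 0.24), which binds YAP. Without mice 2 and 3 they were at 0.12, 0.16, 0.12 and 0.20. The list then had 0 genes called, where 1.09% of all genes were called higher. The classical YAP target Ccn2 was at -0.65, Ccn1 at 0.07, and the GTPase genes Rhoa, Rhob, Rhoc, Cdc42 and Rac1 at -0.29, -0.20, -0.31, -0.27 and 0.15, none of these called.

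In the fatty acid and triglyceride synthesis list, 14 of 20 tested were positive (median 0.27, but 0.10 without mice 2 and 3 and 0.07 with GC and length offsets), and Mlxipl, the gene of the glucose-responsive factor ChREBP, was called higher. Mlxipl had 109, 235, 260, 64.8 and 74.0 CPM in rosuvastatin+GGOH mice, against 61.9, 67.9, 62.5, 58.9 and 103 CPM in GGOH mice. Mice 2 and 3 were above all other mice, and without them its log2 fold change of 1.07 ± 0.34 was 0.23. Plin4, a lipid droplet coat protein, had the same pattern with 27.6, 119, 107, 35.3 and 17.7 CPM in rosuvastatin+GGOH mice and 8.69, 27.6, 21.6, 17.7 and 38.5 CPM in GGOH mice. Its log2 fold change was 1.42 ± 0.46, and 0.24 without mice 2 and 3, and its exons overlap those of Hdgfl2. The lipid droplet and VLDL list as a whole had 7 of 20 positive and a median of -0.10, and had 10 of 20 positive and a median of -0.07 without mice 2 and 3. Mttp, which loads lipid onto apolipoprotein B, was at -0.38 ± 0.15 and at -0.45 without those mice, and its exons overlap those of Trmt10a. It was not called without GGOH mouse 4, where it was at -0.22, or without rosuvastatin+GGOH mouse 1. The droplet protein Hilpda, an inhibitor of triglyceride breakdown, was at -0.78 ± 0.33.

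LXR targets, genes that respond to oxysterols, were positive in 12 of 14 (median 0.27). Without mice 2 and 3, 9 were positive and 0 called (median 0.22), where 1.09% of all genes were called higher. With GC and length offsets the median was 0.14. The called members were Nr1h2, which encodes LXR-beta, with 15.7 ± 2.31 CPM in rosuvastatin+GGOH mice and 9.98 ± 3.00 CPM in GGOH mice (SD, n = 5 each), and Abcg8, a canalicular sterol exporter, with 28.3 ± 6.44 CPM against 19.1 ± 4.62 CPM in the same order of groups. Exons of Abcg8 overlap those of Abcg5. In the bile acid list 12 of 21 were positive (median 0.09), with 2 called higher and 3 lower. Of all genes, 8.95% were called higher and 5.04% lower. Akr1d1, a reductase of bile acid synthesis (-0.64 ± 0.25), Baat, which conjugates bile acids to taurine (-0.62 ± 0.26), and the uptake transporter Slco1b2 (-0.47 ± 0.22) were called lower. The canalicular exporter Abcc2 (0.72 ± 0.32) and Fgfr4, the receptor of the ileal signal that restrains bile acid synthesis (0.68 ± 0.27), were called higher. Without mice 2 and 3 the bile acid list had 0 called. Leaving out any of 6 single libraries ended the call of Abcc2, and any of 4 ended that of Baat. Fgfr4 lost its call without rosuvastatin+GGOH mouse 2 or 3, and Akr1d1 without GGOH mouse 4. The rate-limiting enzyme Cyp7a1 was at 0.29 and was not called. Cyp39a1, an oxysterol hydroxylase outside that list, had 16.6, 13.2, 15.6, 17.2 and 16.8 CPM in rosuvastatin+GGOH mice and 24.6, 19.9, 24.6, 35.9 and 20.03 CPM in GGOH mice. These groups did not overlap, and the log2 fold change was -0.66 ± 0.18.

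Genes of fatty acid oxidation and PPAR-alpha targets were lower in balance, with 9 of 27 positive and a median of -0.14. The 5 called lower act in mitochondria or peroxisomes: Etfdh (-0.39 ± 0.15), which passes electrons of oxidation to ubiquinone and overlaps another gene, Acadl (-0.54 ± 0.21), a long-chain dehydrogenase, Ehhadh (-0.55 ± 0.23) of peroxisomes, Hadh (-0.48 ± 0.21), a hydroxyacyl-CoA dehydrogenase, and the carnitine carrier Slc25a20 (-0.50 ± 0.22). Cyp4a31, a fatty acid hydroxylase, was called higher, with 14.6 ± 3.14 CPM in rosuvastatin+GGOH mice and 9.23 ± 2.09 CPM in GGOH mice and no overlap. Without mice 2 and 3 the list had 2 called lower, Etfdh among them, and 0 higher. Etfdh and Acadl lost their calls without GGOH mouse 4, and Ehhadh on leaving out any of 5 single libraries. Cyp4a31 lost its call without rosuvastatin+GGOH mouse 3 or GGOH mouse 4. Fgf21, the hepatic fasting hormone, had 16.9, 5.30, 7.94, 11.5 and 10.1 CPM in rosuvastatin+GGOH mice and 19.5, 20.1, 15.05, 13.5 and 9.93 CPM in GGOH mice. These overlapped, and its log2 fold change of -0.59 ± 0.41 was not called.

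In several large lists rosuvastatin+GGOH mice 2 and 3 were furthest from the GGOH mice. Transcription and chromatin regulators showed the largest median of the 34 pathway lists, 0.79, with 25 of 25 positive and 14 called higher. In mice 2 and 3, 24 and 25 of the 25 genes exceeded every GGOH mouse, against 31.2 and 34.8% of all genes, and in mice 1, 4 and 5 the count was 7, 0 and 1. Med12, a subunit of the Mediator kinase module, had 7.23, 17.2, 14.4, 4.01 and 3.37 CPM in rosuvastatin+GGOH mice and 1.07, 4.10, 2.53, 1.41 and 5.65 CPM in GGOH mice. Mice 1, 2 and 3 were above the GGOH range and mice 4 and 5 inside it (1.62 ± 0.49; 0.70 without mice 2 and 3). The histone demethylase gene Kdm6b was at 1.39 ± 0.48 and the methyltransferase gene Kmt2b at 1.23 ± 0.45. Without the 2 mice the list median was 0.15, with 17 positive and 0 called. Leaving out the mice in which the list was furthest had to lower its median, so this is no independent check. The same holds for the splicing and mitochondrially encoded lists.

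Splicing regulators behaved alike, with 18 of 23 positive, a median of 0.36 and 9 called higher, and a median of 0.00 and 0 called without mice 2 and 3. Snrnp70, a protein of the U1 particle, was at 1.35 ± 0.39, the helicase genes Ddx17 and Ddx5 at 0.67 ± 0.26 and 0.57 ± 0.23, and the splicing factor gene Srsf2, which overlaps Mettl23 and Mfsd11, at 0.43 ± 0.16. Mitochondrially encoded genes had a median of 0.63, with 12 of 13 positive and 5 called higher (mt-Nd4, mt-Nd4l, mt-Nd5, mt-Nd6 and mt-Co1), and 0.05 without the 2 mice. The genes mt-Nd5 and mt-Nd6 overlap each other. mt-Co1, a subunit of cytochrome oxidase, had 47555, 62698, 68038, 30540 and 19589 CPM in rosuvastatin+GGOH mice and 19482, 32516, 30392, 22504 and 36408 CPM in GGOH mice. It was not called without rosuvastatin+GGOH mouse 1, 2 or 3 or GGOH mouse 1 or 4. mt-Nd3, a complex I subunit, was the member at a negative fold change (-0.30 ± 0.27), and with offsets for GC content and length it was at 0.12. mt-Nd6, the complex I subunit encoded on the other strand, had 10.9, 15.2, 64.8, 8.39 and 5.33 CPM in rosuvastatin+GGOH mice, against 1.56, 17.3, 6.01, 4.74 and 4.64 CPM in GGOH mice. Mouse 3 was far above the rest, and the log2 fold change of 1.57 ± 0.58 was 0.51 without it.

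Other lists were low in those 2 mice. Nuclear-encoded respiratory chain genes were negative in 35 of 36 (median -0.29, 2 called lower), and 27 and 31 of the 36 lay below every GGOH mouse in mice 2 and 3, against 28.6 and 30.0% of all genes. Proteasome genes had 2 of 30 positive, a median of -0.29 and 5 called lower, among them Psmd14, the deubiquitinase of the lid (-0.61 ± 0.27), and Psmd6 (-0.49 ± 0.20). Cytosolic ribosomal protein genes had 4 of 44 positive and a median of -0.24, with 0 called. In mouse 3, 43 of these 44 lay below every GGOH mouse, and in mouse 2 only 9 did, so that the 2 libraries differed there. Without mice 2 and 3 the medians of the 3 lists were -0.09, -0.11 and -0.06.

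**Figure D3:**
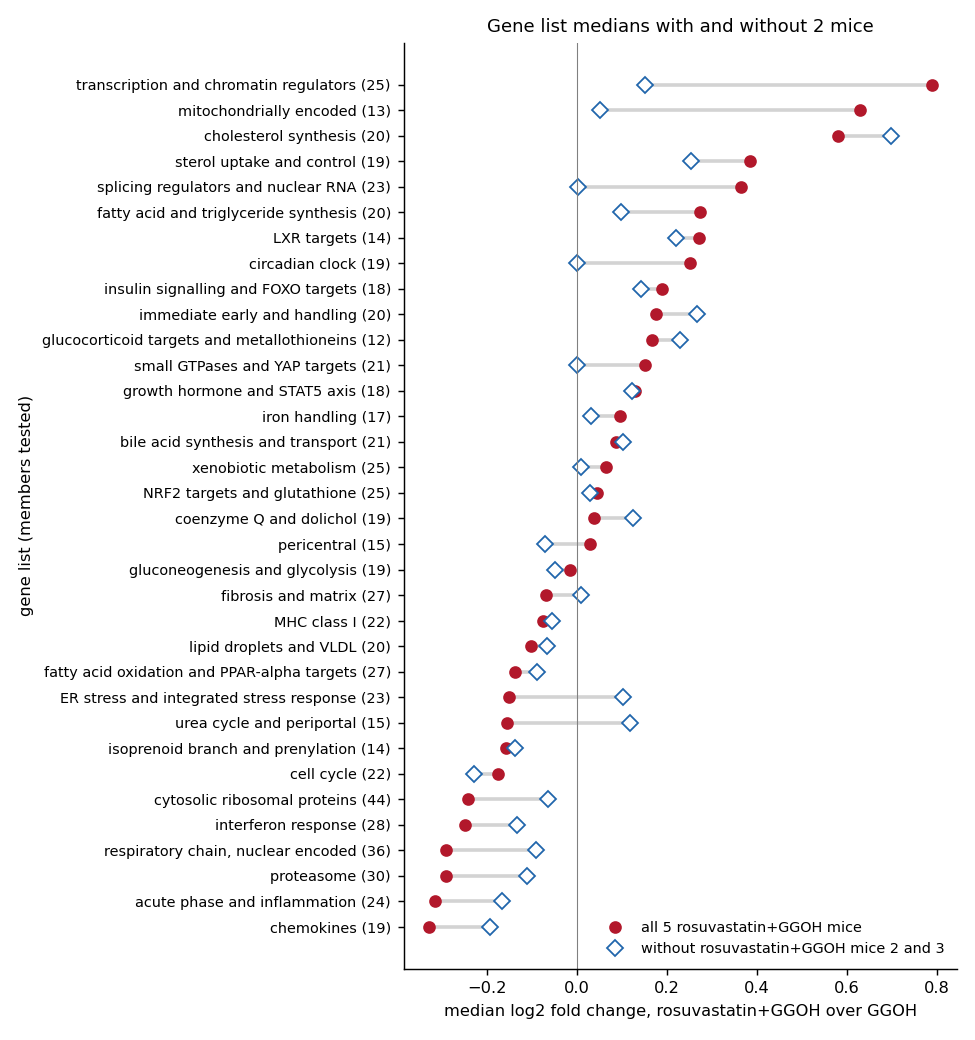
Median log2 fold change of the tested members of each of the 34 pathway lists, rosuvastatin+GGOH over GGOH, with all mice (filled circles) and without rosuvastatin+GGOH mice 2 and 3 (open diamonds). The chromatin, mitochondrially encoded and splicing lists come close to 0 without those mice (0.15, 0.05 and 0.00), and cholesterol synthesis moves away from it (0.58 with all mice and 0.70 without).

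Irs2 and Cyp2b10, like Lss, were called with and without mice 2 and 3. Irs2, which couples the insulin receptor to its downstream kinases (chromosome 8, 10984681 to 11008458, minus strand), had 5.31, 8.15, 8.48, 6.01 and 7.79 CPM in rosuvastatin+GGOH mice and 3.22, 3.53, 3.48, 2.09 and 5.41 CPM in GGOH mice. Mouse 1, the lowest with the statin, was just under GGOH mouse 5, and the other 4 were above every GGOH mouse. The log2 fold change was 1.01 ± 0.30 (0.85 without mice 2 and 3), and it remained called at unadjusted p on leaving out any 1 library. Grb10, an inhibitor of the same receptor, was at 0.72 ± 0.34 (edgeR adjusted p = 0.352) and lost its call without mice 2 and 3. Leaving out any of 8 of the 20 libraries in the model also ended it, rosuvastatin mouse 3 and vehicle mouse 3 among them. In the insulin and FOXO list 13 of the 18 genes were positive (median 0.19). Cyp2b10, the cytochrome P450 induced through the receptor CAR, had 4.03, 9.02, 5.15, 8.07 and 3.92 CPM in rosuvastatin+GGOH mice and 0.976, 2.15, 3.86, 3.95 and 1.49 CPM in GGOH mice. The groups touched at mouse 5 and GGOH mouse 4, and the log2 fold change was 1.27 ± 0.45 (1.10 without mice 2 and 3). Its neighbours Cyp2b9 (0.64) and Cyp2b13 (0.81) were not called. Reads of these close paralogs are divided by estimation, so the copy they came from is uncertain. The xenobiotic list as a whole had 14 of 25 positive and a median of 0.06.

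NRF2 targets were near the level of all genes (15 of 25 positive, median 0.04). Abcc3, a basolateral exporter (0.63 ± 0.24), and Gstm1, a glutathione transferase with close paralogs (0.79 ± 0.37), were called higher, and were at 0.22 and 0.44 without mice 2 and 3. In the circadian list (15 of 19 positive, median 0.25, and 0.00 without mice 2 and 3), Nr1d1, the repressor REV-ERB-alpha, had 32.5, 57.3, 63.6, 33.4 and 29.2 CPM in rosuvastatin+GGOH mice and 11.1, 19.6, 15.4, 12.8 and 39.0 CPM in GGOH mice. GGOH mouse 5 alone lay inside the other group (1.14 ± 0.41), and exons of Nr1d1 overlap those of Thra. The time of sampling is not given in the labels.

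In the growth hormone list (11 of 18 positive, median 0.13), Mup20, an abundant urinary pheromone protein, had 5811, 7124, 3399, 10454 and 6076 CPM in rosuvastatin+GGOH mice and 15419, 9395, 8024, 16108 and 22698 CPM in GGOH mice. Mouse 4 alone reached into the GGOH range (-1.12 ± 0.41), and Mup20 is one of a family of near-identical genes. Socs2, a feedback inhibitor of the same axis, had 19.7, 2.52, 11.8, 4.44 and 10.7 CPM in rosuvastatin+GGOH mice and 4.30, 3.59, 3.98, 3.44 and 10.4 CPM in GGOH mice. Its difference of 0.93 ± 0.44 was 0.50 without mouse 1, and 6 other libraries of the 2 groups also ended its call when left out. In the iron list (12 of 17 positive, median 0.10) the transferrin receptor gene Tfrc (-0.70 ± 0.27) and the BMP target Id1 (-0.52 ± 0.21) were called lower. In the stress response list, with 8 of 23 positive (median -0.15, and 0.10 without mice 2 and 3), Ern1, the sensor IRE1 of the unfolded protein response, was called higher (0.83 ± 0.28, and 0.38 without those mice). Among glucocorticoid targets (7 of 12 positive, median 0.17), the induced factor Zbtb16 was called higher (1.09 ± 0.51), and immediate early genes had 13 of 20 positive (median 0.18). Zbtb16 lost its call on leaving out any of 7 single libraries.

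Gluconeogenesis and glycolysis genes had 9 of 19 positive (median -0.01) and 0 called. Periportal genes had 5 of 15 positive (median -0.16), and 9 of 15 without mice 2 and 3 (median 0.12). Cyp2f2, a cytochrome P450 of periportal cells, was at 328 ± 43.7 CPM in rosuvastatin+GGOH mice and 218 ± 45.1 CPM in GGOH mice (SD, n = 5 each). Pericentral genes had 8 of 15 positive (median 0.03), with Tbx3, a transcription factor of the Wnt-driven zone, called higher (0.48 ± 0.23). Leaving out any of 9 of the 20 libraries in the model ended the call of Tbx3, and any of 7 ended that of Cyp2f2. For Tbx3 these included rosuvastatin mouse 3 and vehicle mice 1 and 3, outside the compared groups. In the cell cycle list (6 of 22 positive, median -0.18), Pcna, the DNA polymerase clamp (-0.56 ± 0.21), and Ccne1, a cyclin of S phase entry (-0.86 ± 0.38), were called lower. Pcna lost its call without GGOH mouse 1, and Ccne1 on leaving out any of 6 single libraries.

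Immune lists leaned lower in rosuvastatin+GGOH mice, and GGOH mice 1 and 2 were the highest of all for Cxcl1, Iigp1, S100a9 and Fgl2. Chemokines had 2 of 19 positive (median -0.33), acute phase genes 4 of 24 (median -0.32) and interferon response genes 8 of 28 (median -0.25). Without rosuvastatin+GGOH mice 2 and 3 the medians were -0.19, -0.17 and -0.13. The acute phase median was -0.21 without GGOH mouse 1. Without GGOH mouse 2 the medians were -0.14 for chemokines and 0.01 for interferon genes. Cxcl1, a neutrophil attractant, had 5.63, 13.3, 7.08, 20.8 and 36.6 CPM in rosuvastatin+GGOH mice, against 189, 42.0, 9.86, 25.6 and 6.72 CPM in GGOH mice. Its log2 fold change was -1.69 ± 0.72, and -0.31 without GGOH mouse 1. It was also not called without rosuvastatin+GGOH mouse 1, 2 or 3. Iigp1, an interferon-induced GTPase, had 379, 287, 333, 451 and 534 CPM in rosuvastatin+GGOH mice and 1016, 1742, 579, 917 and 347 CPM in GGOH mice. Here 4 of the 5 GGOH mice were above all rosuvastatin+GGOH mice (-1.21 ± 0.34), and it was called without any 1 library. Igtp, a relative of it, was at -1.35 ± 0.52, and at -0.17 without GGOH mouse 2, which had 249 CPM, and its exons overlap those of Irgm2. Of 28 interferon genes 6 were called lower and Oas2, a sensor of double-stranded RNA, was called higher (1.70 ± 0.47, and 0.71 without mice 2 and 3). Socs3, a feedback inhibitor of cytokine signalling, was at -0.69 ± 0.25 and was not called without GGOH mouse 1. In the MHC class I list (7 of 22 positive, median -0.08), the immunoproteasome genes Psmb8 and Psmb9 were at -0.57 ± 0.26 and -0.73 ± 0.33, with exons of Psmb9 overlapping those of Tap1, while H2-K2, a class I gene with close paralogs, was higher with no overlap (1.22 ± 0.29). The call of Psmb8 ended on leaving out any of 9 of the 20 libraries in the model, and that of Psmb9 on any of 6. For Psmb8 these included rosuvastatin mouse 2 and vehicle mice 2, 4 and 5, outside the compared groups.

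Markers of neutrophils and monocytes leaned the same way as these genes. S100a9, a neutrophil protein, had 2.88, 3.45, 1.93, 4.76 and 9.20 CPM in rosuvastatin+GGOH mice and 24.1, 19.1, 4.87, 6.77 and 2.97 CPM in GGOH mice, with GGOH mice 1 and 2 highest. It was not called without either of them or rosuvastatin+GGOH mouse 1, 2, 3 or 4. Of 11 neutrophil markers 4 were tested, and Ly6g, Mpo and Elane were among those too low to test. The summed level of the 4 was 6.01 to 18.4 CPM in rosuvastatin+GGOH mice and 6.36 to 44.7 CPM in GGOH mice. Monocyte and dendritic cell markers had 2 of 10 positive (median -0.45), with summed levels of 115 to 334 CPM in rosuvastatin+GGOH mice and 166 to 410 CPM in GGOH mice. The chemokine receptor gene Ccr2 (-0.66 ± 0.32) and H2-Ab1 of class II presentation (-0.83 ± 0.33) were called lower. Leaving out any of 10 of the 20 libraries in the model ended the call of Ccr2. Rosuvastatin mouse 1 and vehicle mice 2 and 3, outside the compared groups, were among these 10. Any of 3 ended the call of H2-Ab1. Kupffer cell markers had 4 of 14 positive (median -0.28) and lipid-associated macrophage markers 2 of 11 (median -0.31), with 0 markers called lower in either list and the endothelial cadherin gene Cdh5 of the Kupffer list called higher, though not without rosuvastatin+GGOH mice 2 and 3. The Kupffer median was -0.08 without those mice and 0.02 without GGOH mouse 2. The part of these cells in the immune gene differences was not tested.

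Sinusoidal endothelial markers went the other way. Of 14, 12 were positive (median 0.37) and 6 were called higher, and without mice 2 and 3 the median was 0.15 with 13 positive and 1 called. With GC and length offsets it was 0.13. Stab2, a scavenger receptor of these cells, had 17.8, 39.8, 33.3, 16.7 and 16.2 CPM in rosuvastatin+GGOH mice and 9.37, 15.8, 14.9, 11.7 and 17.6 CPM in GGOH mice (0.83 ± 0.27; 0.29 without mice 2 and 3). The orphan receptor gene Gpr182, which overlaps Zbtb39, kept an unadjusted p under 0.05 without mice 2 and 3 as well, at 20.1 ± 2.86 CPM in rosuvastatin+GGOH mice and 15.003 ± 1.93 CPM in GGOH mice (SD, n = 5 each). The summed level of the list was 311 to 494 CPM in rosuvastatin+GGOH mice and 291 to 335 CPM in GGOH mice. Stellate cell markers had 3 of 13 positive (median -0.16), with Bmp5 (-0.43 ± 0.17), the growth factor gene Hgf (-0.43 ± 0.18) and the proteoglycan gene Dcn (-0.56 ± 0.21) called lower. Matrix genes had 13 of 27 positive (median -0.07). Of the 9 pancreatic acinar markers 5 were at 0 in all 10 libraries, as was the adipocyte hormone gene Lep. Cholangiocyte markers had 3 of 7 positive (median -0.63), T and NK cell markers 7 of 13 (median 0.25) and B cell markers 5 of 9 (median 0.10). Smooth muscle markers had 3 of 8 positive (median -0.12), adipocyte markers 3 of 5 (median 0.07) and erythroid markers 3 of 7 (median -0.04). Hepatocyte markers had 5 of 13 positive (median -0.09, and 0.19 without mice 2 and 3).

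By p-value, the first 15 genes among those with a mean log2 CPM of 1 or more comprised 11 higher and 4 lower genes, and all 15 kept an unadjusted p under 0.05 without mice 2 and 3. They were picked by p in these same libraries, which favours keeping that level, so this is not independent support. Gmeb1, a factor that modulates glucocorticoid response elements (chromosome 4, 132221025 to 132261602, minus strand), had 4.80, 4.76, 3.65, 3.88 and 3.77 CPM in rosuvastatin+GGOH mice and 1.66, 2.46, 2.21, 2.76 and 2.20 CPM in GGOH mice. The groups did not overlap, and the log2 fold change was 0.88 ± 0.20 with all mice and 0.87 without mice 2 and 3. Higher too were Shroom1, of a family that binds actin (0.91 ± 0.21), Top3b, a topoisomerase (0.75 ± 0.17), Rgl2, an exchange factor of Ral GTPases (0.98 ± 0.25), and Tie1, an endothelial receptor kinase (1.16 ± 0.30). Ushbp1, Sbno2, Fam219a, Klhdc8b and Tmem25 lay between 1.01 and 1.18, and exons of Klhdc8b overlap those of Ccdc71. The lower genes were Fgl2, a fibrinogen-like secreted protein (-1.37 ± 0.36), Trmt11, a tRNA methyltransferase (-0.61 ± 0.16), Meiob, a DNA-binding protein of meiosis (-0.95 ± 0.25), and Zbtb33, the methyl-DNA-binding factor Kaiso (-0.45 ± 0.12). Fgl2 had 7.54, 5.30, 5.90, 6.13 and 10.6 CPM in rosuvastatin+GGOH mice and 23.3, 37.4, 11.1, 13.9 and 6.30 CPM in GGOH mice.

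Among genes of at least moderate level whose groups did not overlap, the largest differences were smaller on the lower side. Nampt, the rate-limiting enzyme of NAD salvage, had 128, 85.3, 94.3, 106 and 107 CPM in rosuvastatin+GGOH mice and 160, 213, 157, 182 and 131 CPM in GGOH mice. Mouse 1 came within a few CPM of GGOH mouse 5, and the log2 fold change was -0.70 ± 0.19 (-0.56 without mice 2 and 3). The kinetochore gene Spc25 (-0.87 ± 0.32), the small GTPase gene Arl4a (-0.77 ± 0.31), the reticulon gene Rtn4 (-0.62 ± 0.22) and Orc4 of the origin recognition complex (-0.61 ± 0.20) were others, and exons of Rtn4 and Orc4 overlap other genes. On the higher side stood Sall1, a zinc finger factor, with 11.3, 23.5, 17.5, 9.08 and 7.74 CPM in rosuvastatin+GGOH mice and 2.34, 7.58, 5.50, 5.19 and 7.73 CPM in GGOH mice (1.27 ± 0.37; 0.72 without mice 2 and 3). The prostaglandin transporter gene Slco2a1 (1.10 ± 0.34), Sorbs3, a partner of vinculin (1.07 ± 0.33), the transporter gene Abcc6 (0.82 ± 0.26) and Arhgef7, an exchange factor of Rac and Cdc42 (0.81 ± 0.28), were also among them. Of the 33 genes chosen by smallest p or by fold without overlap, 31 kept an unadjusted p under 0.05 without each single library and 22 did so without mice 2 and 3. The exceptions were Arl4a, without GGOH mouse 1 or 4, and the ubiquitin ligase gene Rnf138, without rosuvastatin+GGOH mouse 3 or 4 or GGOH mouse 1 or 4. Of the 85 preselected genes and list members at that level, 18 and 14 did so. The 33 were picked for small p or for no overlap in these same data, which favours keeping that level. The counts of the 33 and of the 85 are therefore no measure of which genes are more robust.

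**Figure D4:**
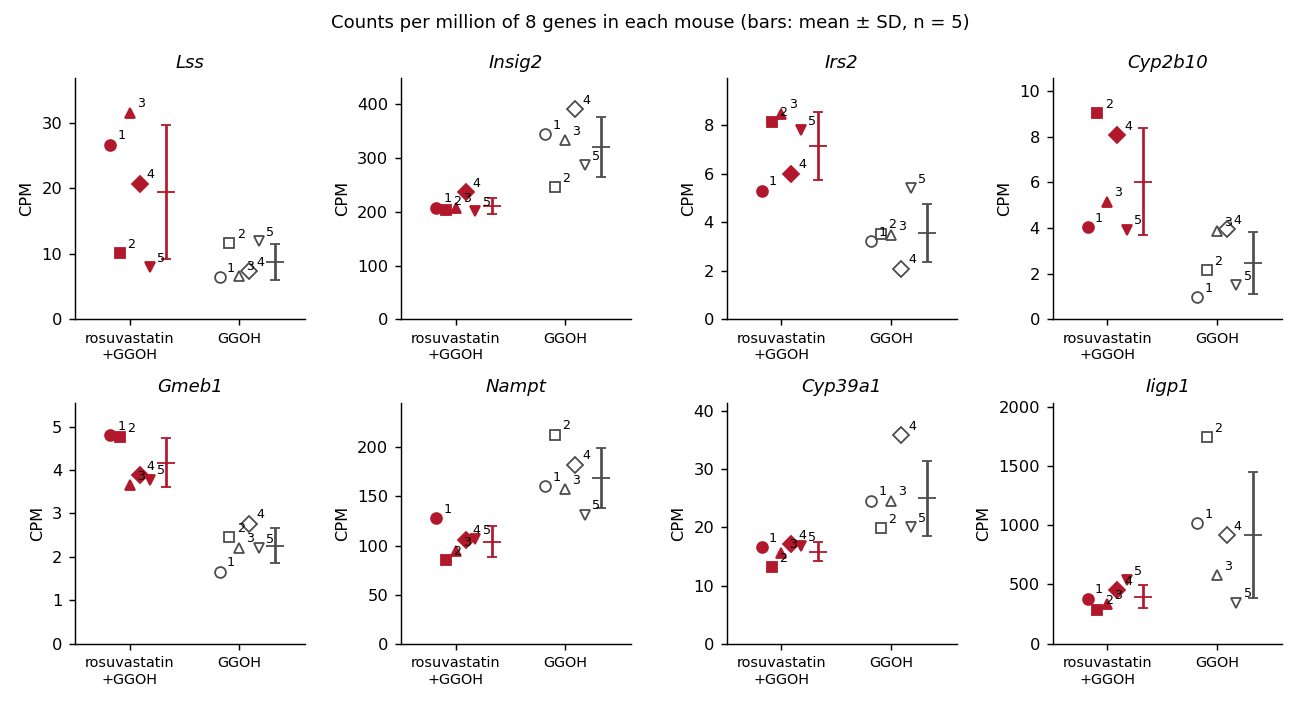
CPM of 8 genes in each mouse, rosuvastatin+GGOH (filled, left) and GGOH (open, right), with mouse numbers; bars are mean ± SD (n = 5). The groups do not overlap for Insig2, Gmeb1, Nampt and Cyp39a1, and overlap for Lss, Irs2, Cyp2b10 and Iigp1.

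Transcript GC content moved with the fold changes across the whole table. With the 12590 tested genes that had a GC value split into 5 groups of equal size, the median log2 fold change was -0.20, -0.09, 0.01, 0.12 and 0.26 with increasing GC content. Without rosuvastatin+GGOH mice 2 and 3 it was -0.18, -0.08, 0.01, 0.09 and 0.17. Rosuvastatin over vehicle, in 10 other mice, gave -0.16, -0.08, -0.03, 0.05 and 0.12. Higher genes at unadjusted p had a median GC content of 55.0% and lower genes 44.3%, against 50.3% for all tested. With offsets for GC content and length 750 genes were higher and 524 lower. Of the genes first called higher and lower, 632 and 314 kept their sign with an unadjusted p under 0.05. Irs2 was then at 0.49 and Gmeb1 at 0.85, both still called, while Insig2 at -0.39 was not. Since the measure differs between the groups, GC content and the treatment cannot be told apart for such genes.

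**Figure D5:**
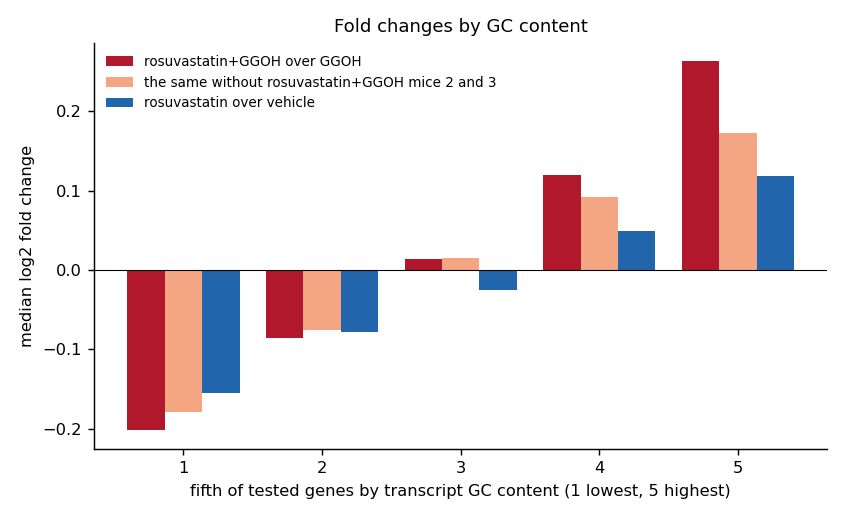
Median log2 fold change of tested genes in 5 groups of transcript GC content, for rosuvastatin+GGOH over GGOH with all mice and without rosuvastatin+GGOH mice 2 and 3, and for rosuvastatin over vehicle. Medians go upward with GC content in each, between -0.20 and 0.26 with all mice.

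The statin's effect with GGOH was set beside its effect without GGOH, rosuvastatin against vehicle, which uses other mice. There edgeR also called 0 of 12789 genes, DESeq2 2, and 226 were higher (1.77%) and 246 lower (1.92%) at unadjusted p. The cholesterol synthesis list had a median of 0.58 with GGOH and 1.11 without, with 1 and 17 of 20 genes at unadjusted p under 0.05. The interaction, the difference between both effects, had a median of -0.52 over these genes, with 18 of 20 negative. Of the 20, 0 were at unadjusted p under 0.05, with 369 of all genes (2.89%) and 0 at adjusted p. No test of the list as a whole was made. Fdps was at 0.81 ± 0.50 with GGOH and 1.64 ± 0.51 without, with an interaction of -0.83 ± 0.71. Lss, at 1.13 ± 0.45 with GGOH and 1.32 ± 0.44 without, had an interaction of -0.19 ± 0.63. Ggps1 was at -0.26 ± 0.20 with GGOH and -0.39 ± 0.20 without.

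The interaction was at unadjusted p under 0.05 for Irs2, Gmeb1, Fgl2 and Fgf21, among other genes named above. Gmeb1 and Fgl2 were named for their small p with GGOH, and that difference enters the interaction. Irs2 was at 1.01 ± 0.30 with GGOH and -0.04 ± 0.30 without (interaction 1.04 ± 0.42). Gmeb1 was at 0.88 ± 0.20 and 0.03 ± 0.20 in the same order (interaction 0.85 ± 0.28), and Fgl2 at -1.37 ± 0.36 and 0.03 ± 0.36 (interaction -1.40 ± 0.50). Fgf21 was at -0.59 ± 0.41 with GGOH and 0.74 ± 0.42 without, with an interaction of -1.33 ± 0.59. Cyp2b10 was at 1.27 ± 0.45 and 0.04 ± 0.54 (interaction 1.22 ± 0.71), and Insig2 at -0.60 ± 0.24 and 0.08 ± 0.24 (interaction -0.68 ± 0.34), neither at unadjusted p under 0.05. None of these interactions passed adjustment over all genes. In rosuvastatin against vehicle, chromatin regulators had a median of -0.06 and splicing regulators one of -0.09.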

How the data were processed

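Per the labels' protocols, liver RNA was purified on columns and poly(A)-selected for TruSeq libraries, which were sequenced as read pairs on an Illumina instrument. The submitters' processing notes name bcl2fastq 2.19, kallisto 0.44.0, DESeq2 and GRCm38, without roles or a DESeq2 version. The authors deposited estimated counts per gene and TPM values per gene, the second normalised for length and depth. The deposited estimated counts are whole numbers and were tested as such. 1 entry without a gene name, with between 0.00801 and 0.0157% of a library's counts, was left out. No column was left unmapped.

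Genes were tested with edgeR 4.0.16 in R 4.3.3: quasi-likelihood F test, TMM, the default low-count filter by group, a group-means model over all 20 libraries and Benjamini-Hochberg adjustment, with 0.05 as the threshold. The value after ± is the SE of a log2 fold change unless called SD. GC content and length came from GENCODE M21 transcripts (98.4% of tested genes), promoters from RefSeq GRCm38.p6. Fits were checked on simulated counts. Alternatives were RLE factors, DESeq2 1.42.0, limma 3.58.1 on log2(TPM + 1) and log2(TPM + 0.1), voom quality weights, other filters (none; at least 1 CPM in 5 libraries), fits of only the compared groups, a block for replicate number, GC and length offsets, no mitochondrially encoded genes, and left-out libraries. Library measures were compared by exact permutation of the 5 and 5 mice.

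The comparison, the 34 pathway and 14 marker lists and the tests were chosen with earlier results of these data known. Named genes are 15 preselected genes, the 15 smallest p-values at a mean log2 CPM of 1 or more, the 10 highest and 10 lowest log2 fold changes without overlap at a mean of 3 or more, and up to 4 members of a list at unadjusted p under 0.05. Cholesterol synthesis and mitochondrially encoded genes were described as lists, and a few genes of the lists are not reported here by name. Genes outside this rule (Slco1b2, Hadh, Slc25a20, Ccn1, Ccn2, Rhoa, Rhob, Rhoc, Rac1, Cdc42, Cyp7a1, Cyp2b9, Cyp2b13) were chosen after their values were seen. Promoters were to be printed where the searched form of the sterol regulatory element was found. None held that form, so CCAAT was used. Same-numbered mice of the groups did not deviate together in every pair, so the numbers were not used to pair them.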

Additional observations from a re-analysis of the deposited data

Results flagged for a closer look

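In groups of 5, the highest or lowest mouse was marked where its gap to the next exceeded 0.71 of the group's range. Of 136 groups examined 6 were marked, and chance would mark about 6.8. Rosuvastatin+GGOH mouse 3 had the lowest total of its group, 8548120 estimated counts, and GGOH mouse 1 that of its own, 11350411. Rosuvastatin+GGOH mouse 1 was lowest for the insulin and FOXO list, at a mean of 4.36 log2 CPM. For glucocorticoid targets and metallothioneins, rosuvastatin+GGOH mouse 4 was lowest, at 3.60. The ribosomal protein list was lowest in rosuvastatin+GGOH mouse 3, at 7.26. Hmgcs1, a synthase early in the mevalonate pathway, was lowest in GGOH mouse 1, at 88.5 CPM.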

How the results depend on the processing

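Over every alternative run, 0 genes passed the adjusted threshold in rosuvastatin+GGOH mice against GGOH mice. The 1144 higher genes became 434 and 438 by limma on log2(TPM + 1) and log2(TPM + 0.1), 750 with GC and length offsets and 139 without rosuvastatin+GGOH mice 2 and 3. The 644 lower genes became 424, 415 and, without those mice, 142, and 1021 with only the compared groups in the fit. Leaving out 1 library at a time gave 405 to 1647 higher and 315 to 961 lower genes. The counts moved by over 1.5 times without rosuvastatin+GGOH mouse 2 (471 and 347), rosuvastatin+GGOH mouse 3 (405 and 315), GGOH mouse 1 (625 and 330) or GGOH mouse 4 (573 and 333). In rosuvastatin against vehicle DESeq2 called 2 genes. The causes were not tested.

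Named genes with a reversed sign numbered 5. Ebp, at -0.02 with all mice, was at 0.0095 with GC and length offsets, 0.19 without mice 2 and 3, 0.051 with quality weights and between -0.13 and 0.062 on leaving out 1 library. Sc5d was between -0.0099 and 0.19 on leaving out 1 library. Without mice 2 and 3 mt-Nd1 was at -0.010 and mt-Co3 at -0.088. mt-Co3 was at -0.046 with quality weights and between -0.055 and 0.14 without 1 library, and mt-Nd3 was at 0.12 with the offsets. Of the list medians, 66 values in 21 of 48 lists differed in sign.

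With replicate number as a block, 830 genes were higher and 598 lower at unadjusted p and 0 passed adjustment. Deviations of same-numbered mice correlated at 0.244, 0.149, 0.0881, 0.256 and -0.447 for numbers 1 to 5. Correlations of differently numbered mice were not set beside them, so whether the numbers pair the mice was not tested.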
